A study of Mus musculus with 18 samples.

Results

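Among the known piRNAs of mouse sperm, 131 reached a mean of 20 TPM or more over the 9 control libraries of the series, out of 35824 known piRNAs listed in at least 1 library with a complete list. They are entries of the submitters' small RNA table whose identifiers begin with mmu_piR, and a library that did not list an entry counted as 0. TPM here is the number of reads of an entry per 1000000 reads of the library, with no length term, since each read stands for 1 small RNA. The control libraries chose these 131 piRNAs, so their high level in those libraries is a description and not a result. In the following they are called members.

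PIWI-interacting RNAs, or piRNAs, are small RNAs of the germline that are cut from long single-stranded precursors and loaded onto PIWI proteins, which in mouse are MILI, MIWI and MIWI2. In fetal male germ cells they guide the silencing of transposons, including by DNA methylation. In the adult testis a far larger pachytene population appears in spermatocytes and round spermatids, made from genomic clusters that mostly lack transposon sequence. Sperm retain little of this population, since most of the cytoplasm is shed when spermatids mature. The roles of the single members are not stated in the sources used here, and their sequences and positions were not used here.

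The animals were ICR mice, an outbred strain, and small RNA was sequenced from their sperm. The series has 6 groups of 3 libraries, with a control group (Con) and an exposed line (NHS) in 3 successive generations. The treated F0 NHS founders received NH3 and H2S for 5 weeks, starting when they were 3 weeks old, and were then mated with normal ICR females. F1 and F2 males of the exposed line received no treatment, and F1 males were mated at 8 weeks. The groups compared were F0 Con, untreated founders, F0 NHS, the treated males, F1 Con and F2 Con, the untreated control lines, and F2 NHS, the untreated grandsons of treated males. Complete lists were at hand for 13 libraries: 3 each of F0 Con, F0 NHS, F1 Con and F2 Con, and 1 of F2 NHS. F1 NHS replicates 1 to 3 and F2 NHS replicates 2 and 3 are listed in part and were left out of the comparisons, except that F2 NHS replicates 2 and 3 entered 1 alternative fit of F2 NHS against F2 Con over early-listed piRNAs. Nothing in the labels says that libraries of a group came from separate animals, so the p-values speak only of variation among these libraries, which may be technical. A step that removes somatic cells from the semen is not given in the sources used here.

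The 13 libraries held 18072900 to 29430555 reads, of which 512207 to 3391680 were known piRNA reads. A level of 20 TPM rests on at least 361 reads, and all 131 members were listed in all 13 libraries. The libraries fell into 2 sets by the predicted miRNA novel_mir1. It was above 1000 TPM in F0 Con 2, F0 NHS 3, F2 Con 1, F2 Con 2 and F2 NHS 1, and below in the others. Marker miRNAs of 5 cell types were listed in every one of these libraries. The summed level of 10 germ cell miRNAs, among them the miR-34b/c family of spermatogenic cells, was 4569 to 8712 TPM in F0 Con, 7718 to 20134 in F0 NHS, 14878 to 22590 in F1 Con, 21167 to 24129 in F2 Con and 10885 in F2 NHS. The summed level of 2 smooth muscle miRNAs, miR-143-3p and miR-145a-5p, was 60614 to 162787 TPM in F0 Con, 46497 to 112168 in F0 NHS, 5723 to 12872 in F1 Con, 11662 to 28113 in F2 Con and 28831 in F2 NHS. The summed markers of epididymal epithelium were at 20178 to 28543 TPM in F0 Con, 11732 to 25416 in F0 NHS, 4598 to 19733 in F1 Con, 5993 to 9026 in F2 Con and 14768 in F2 NHS. Those of red blood cells were at 10023 to 77137 TPM in F0 Con, 19922 to 35487 in F0 NHS, 15501 to 34097 in F1 Con, 4311 to 11514 in F2 Con and 14124 in F2 NHS. Leukocyte markers ran from 176 to 2283 TPM and overlapped between all groups of 3 libraries. In bulk RNA, fewer cells of a type and less RNA per cell cannot be told apart.

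The members differed in level by orders of magnitude. A mean above 1000 TPM over the controls was reached by 6 members, 20 lay from 100 to 1000 TPM, 23 from 50 to 100 and 82 from 20 to 50. The median of these means was 33.3 TPM and the highest 18095 TPM. The 3 members just inside the threshold were mmu_piR_017289 at 20.2 TPM, mmu_piR_037619 at 20.04 and mmu_piR_015279 at 20.03. Just outside it were mmu_piR_038062 at 19.7 TPM, mmu_piR_018659 at 19.6 and mmu_piR_032165 at 19.6.

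Most known piRNA reads came from the members. Of the known piRNA reads, they held 71.0%, 73.8% and 56.7% in F0 Con replicates 1 to 3, 73.4%, 73.5% and 55.8% in F1 Con, and 80.8%, 86.9% and 59.5% in F2 Con. In each control generation 1 library, replicate 3, lay well below the other 2. In F0 NHS, which the rule did not use, the members held 80.7%, 86.9% and 76.5%, and in the F2 NHS library 77.3%. The 3 F0 NHS shares lay above the 3 F0 Con shares without overlap. With the reads of mmu_piR_000691 left out, the means were 63.5% ± 12.2 (SD, n = 3) in F0 Con and 64.0% ± 10.04 in F0 NHS, and the ranges overlapped.

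In each of the 4 exposed-line libraries with complete lists, its own 10 most abundant known piRNAs were all members. The same held in the control libraries, but these chose the members, so there it follows largely from the rule. Further down the lists the match was looser. Of the 131 most abundant known piRNAs of a library, 85, 78 and 85 were members in F0 NHS replicates 1 to 3, and 91 in F2 NHS. In the control libraries this number was 81 to 97. Over the 4 exposed-line libraries with complete lists, 98 known piRNAs had a mean of 20 TPM or more, and 86 of them were members. That is 87.8% of the list from the exposed line and 65.6% of the members. By generation, 69 members had a mean of 20 TPM or more in F0 Con, 120 in F1 Con and 108 in F2 Con, and 56 in each of the 3. The count was 71 in F0 NHS and 93 in F2 NHS. A mean of 20 TPM in 1 control group alone was found for 6 members in F0, 13 in F1 and 2 in F2.

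**Figure D1:**
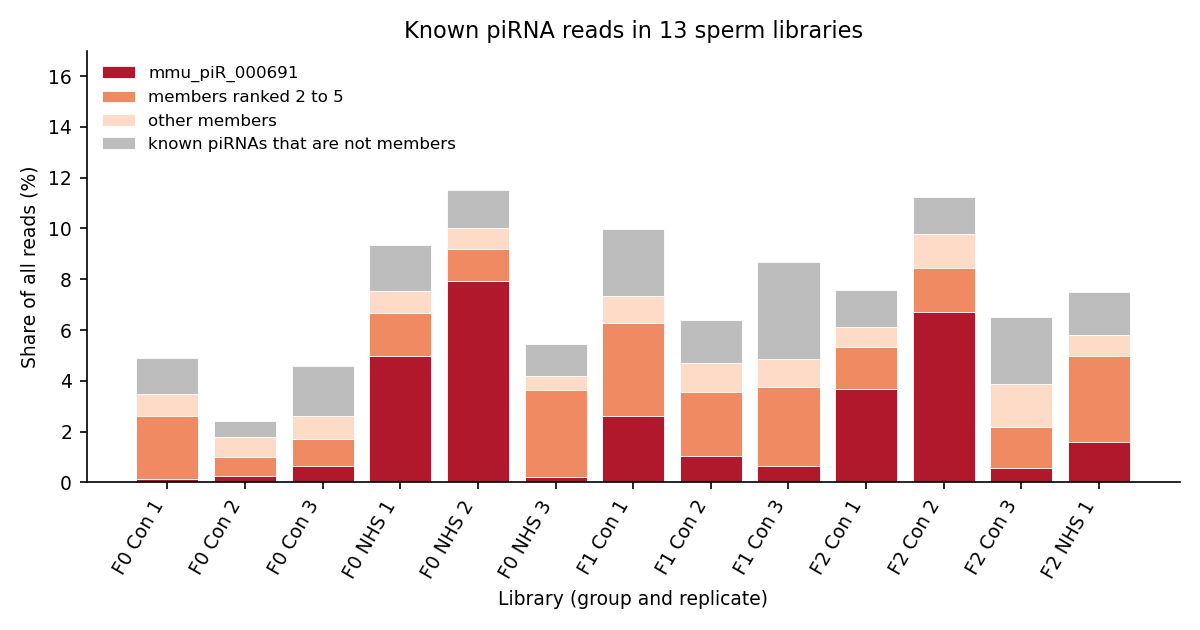
Share of all reads (%, y axis) taken by known piRNAs in each of the 13 libraries with complete lists (x axis), split into mmu_piR_000691, the members ranked 2 to 5, the other members and known piRNAs that are not members. The dark segment of mmu_piR_000691 is 7.94% of reads in F0 NHS 2 and 0.118% in F0 Con 1.

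The most abundant member, mmu_piR_000691, held rank 1 to 4 in each of the 13 libraries. Its level was 1176, 2462 and 6610 TPM in F0 Con replicates 1 to 3, and 49918, 79404 and 2090 TPM in F0 NHS. It was 26063, 10418 and 6634 TPM in F1 Con, 36666, 67259 and 5564 TPM in F2 Con, and 15891 TPM in F2 NHS. F0 NHS replicates 1 and 2 exceeded every control of that generation, whereas replicate 3 lay among them, so the groups overlapped. On average F0 NHS was at 43804 ± 39018 TPM and F0 Con at 3416 ± 2840 (SD, n = 3 each), a 12.8-fold difference of means. The adjusted p was 0.641 by edgeR and 0.0675 by DESeq2, so neither tool called it. As a share of known piRNA reads it ran from 2.40% in F0 Con 1 to 68.9% in F0 NHS 2.

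mmu_piR_000935 was the second member, with a mean over the controls of 8032 TPM. Its level was 17047, 4310 and 3806 TPM in F0 Con, 2602, 1100 and 7470 in F0 NHS, 5269, 5068 and 15735 in F1 Con, 4237, 7078 and 9734 in F2 Con and 14530 in F2 NHS. The groups of 3 libraries overlapped, and it was the most abundant known piRNA in F0 Con 1, F0 Con 2, F1 Con 3 and F2 Con 3, where mmu_piR_000691 was at 1176 to 6634 TPM.

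mmu_piR_022097 was the third, with levels of 4257, 2183 and 3420 TPM in F0 Con and 9053, 4458 and 25819.5 in F0 NHS. It was at 22352.5, 11839 and 9381 TPM in F1 Con, 2225, 1723 and 3161 in F2 Con, and 16019 in F2 NHS. All F0 NHS values lay above those of F0 Con, and those of F1 Con above both other control generations. The F0 difference, 3.99-fold in mean TPM, had an adjusted p of 0.698 by edgeR, and F2 NHS against F2 Con, 6.76-fold, one of 0.644.

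mmu_piR_000585 was the fourth, with a coefficient of variation of 51.9% over the controls. It was at 3505, 991 and 2850 TPM in F0 Con, 4216, 5471 and 604 in F0 NHS, 2619, 3720 and 2937 in F1 Con, 7013, 5142 and 1985 in F2 Con and 2178 in F2 NHS. All groups overlapped.

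mmu_piR_002643, the fifth, was at 276, 121 and 299 TPM in F0 Con and 745, 1518 and 340 in F0 NHS. It was at 6451, 4431 and 2990 TPM in F1 Con, 3264, 3279 and 1525 in F2 Con, and 1196 in F2 NHS. F0 NHS lay above F0 Con, and F1 Con and F2 Con lay above both F0 groups. Its mean in F1 Con was 19.9 times that in F0 Con, given without a test since these libraries chose the member.

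The members ranked 6 to 10 were mmu_piR_000620, mmu_piR_022956, mmu_piR_000362, mmu_piR_039147 and mmu_piR_011982, with means over the controls of 1122, 803, 636, 422 and 395 TPM. Of these, mmu_piR_000362 had the highest coefficient of variation over the controls, 155%. It reached 3166 TPM in F2 Con 3 and was at 786 TPM or less in every other control. mmu_piR_039147 ran from 6.66 to 1350 TPM among the controls, with a coefficient of 124%. That of mmu_piR_011982 was the lowest of the 5, at 39.3%, with levels of 214 to 717 TPM.

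**Figure D2:**
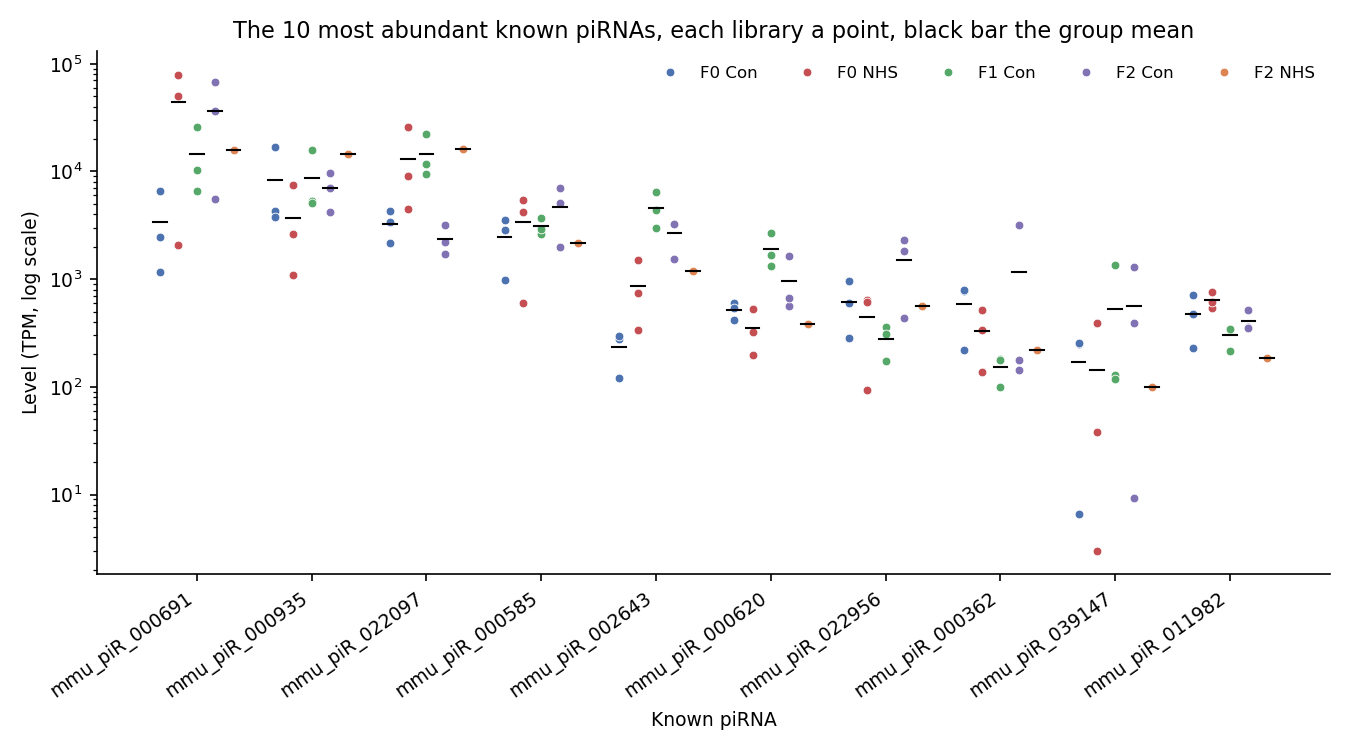
Level in TPM (log y axis) of the 10 most abundant members (x axis), each point a library, the black bar the mean of a group, colours the 5 groups. mmu_piR_000691 spans 1176 to 79404 TPM, mmu_piR_011982 only 186 to 755 TPM.

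Few identifiers held 50% of the known piRNA reads, and their number differed widely within a group. To reach 80% took from 5 to 2416 piRNAs over the 13 libraries, with a median of 477. The number of piRNAs that together held 50% of these reads was 3, 7 and 28 in F0 Con, 3, 5 and 22 in F1 Con, 2, 1 and 16 in F2 Con and 3 in F2 NHS. In F0 NHS it was 1, 1 and 2. The 3 F0 NHS libraries were thus below the 3 F0 Con libraries, and thinning all libraries to 512207 known piRNA reads left these counts as they were. Without mmu_piR_000691 the counts were 3, 8 and 109 in F0 Con and 13, 18 and 2 in F0 NHS, and the groups overlapped (exact p = 0.8). Of the F0 libraries, it ranked first only in F0 NHS 1, F0 NHS 2 and F0 Con 3. Leaving it out was thus uneven, and the overlap decides nothing. With mmu_piR_000691 kept, the difference of means was -11.3 piRNAs (exact permutation p = 0.1, adjusted 0.25), and -3.67 without F0 Con 3. Each library ranked its own piRNAs here, so the rule of membership was not used.

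The 10 most abundant piRNAs of each library held 60.7%, 57.6% and 43.6% of known piRNA reads in F0 Con and 76.1%, 83.0% and 71.0% in F0 NHS. The groups did not overlap, at 53.9% ± 9.12 against 76.7% ± 6.01 (SD, n = 3 each). The exact permutation test gave a two-sided p of 0.1, the smallest that 3 against 3 libraries can give, and 0.25 after Benjamini-Hochberg adjustment over 15 tests. Without mmu_piR_000691, which was left out after the data were seen, the means were 49.9% and 55.1% and the groups overlapped (exact p = 0.7). This takes the rank 1 piRNA from F0 NHS 1, F0 NHS 2 and F0 Con 3, while the other F0 libraries keep theirs. The overlap therefore cannot decide whether concentration differed apart from it. F0 NHS 1 and 2 were then at 49.0% and 46.1%, within the F0 Con range of 34.8% to 60.4%. F0 NHS 3, led by mmu_piR_022097, stayed above that range at 70.2%. Among the control generations the share was 59.4% ± 10.4 in F1 and 66.8% ± 17.6 in F2, and the exact permutation p over the 3 groups was 0.5.

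**Figure D3:**
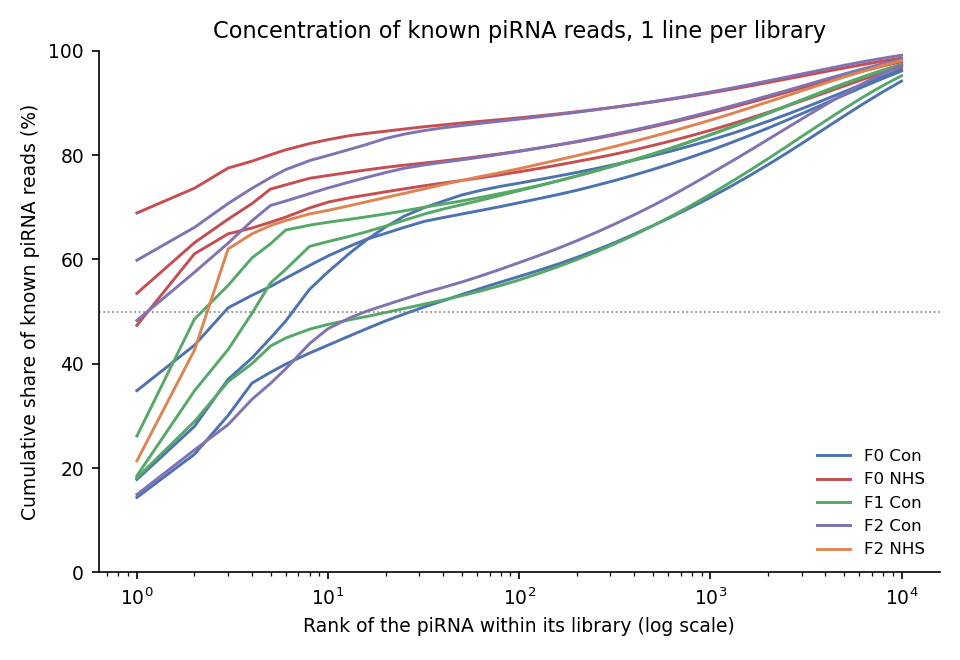
Cumulative share of known piRNA reads (%, y axis) against the rank of a piRNA within its library (log x axis), 1 line per library, coloured by group, the dotted line at 50%. The F0 NHS lines start at 47.4% to 68.9% at rank 1, and the F0 Con lines at 14.4% to 34.9%.

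Known piRNAs as a class made up 4.89%, 2.42% and 4.60% of all reads in the 3 F0 Con libraries and 9.33%, 11.5% and 5.45% in F0 NHS. The class made up 9.97%, 6.39% and 8.68% in F1 Con, 7.59%, 11.2% and 6.52% in F2 Con and 7.49% in F2 NHS. F0 Con was the lowest group, and none of its libraries reached the range of the others. F0 NHS had 2.21 times the F0 Con share, 8.77% ± 3.08 against 3.97% ± 1.35 (SD, n = 3 each), with an exact two-sided permutation p of 0.1 (adjusted 0.25). The exact p was the same for F1 Con at 8.35% ± 1.81 and F2 Con at 8.45% ± 2.48 against F0 Con, and 0.0679 over the 3 control groups (adjusted 0.25).

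Most of the F0 difference of means lay in 1 identifier, mmu_piR_000691, through F0 NHS 1 and 2. In F0 NHS 3 it was 0.209% of reads. The class share there without it, 5.24%, lay above every F0 Con library, at 2.17% to 4.77%. Without mmu_piR_000691 the class share was 3.63% ± 1.33 in F0 Con and 4.39% ± 0.830 in F0 NHS, which overlapped (exact p = 0.5), and 4.80% ± 1.05 in F2 Con, which overlapped with F0 Con too. F1 Con, at 6.91% ± 1.39, still lay above F0 Con in every library (exact p = 0.1). Within the set of libraries low in novel_mir1 the whole class took 4.74% in F0 Con and 10.4% in F0 NHS, with 2 libraries each, and in the high set 2.42% and 5.45% in the 1 library of each. Without mmu_piR_000691 these values were 4.36% and 3.96% in the low set and 2.17% and 5.24% in the high set. The summed germ cell miRNAs, given above, were also lowest in F0 Con, though overlapping with F0 NHS, and the smooth muscle miRNAs highest in the 2 F0 groups. Their part in the result was not tested.

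Single piRNAs were compared with edgeR's quasi-likelihood test on 6463 known piRNAs with 1 CPM or more in at least 3 libraries, with Benjamini-Hochberg adjustment over all of them and a threshold of 0.05. All 131 members passed that filter. The scaling matters for directions: with TMM scaling the median log2 difference of all tested piRNAs was 0.08 for F1 Con against F0 Con, 0.01 for F2 Con against F0 Con and 0.03 for F0 NHS against F0 Con. With library totals it was 1.13, 0.58 and 0.24. Log2 values below are from TMM scaling.

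In F0 NHS against F0 Con, edgeR called 0 of 131 members and 0 of all (percent called 0). At an unadjusted p under 0.05 it had 23 members, 19 of them lower, which is 17.6% against 7.78% of all piRNAs tested. DESeq2 called 9 members, all lower, beside 0.812% of the piRNAs it gave an adjusted p in either direction and 0.625% lower. Groups did not overlap for 10 members that were higher and 17 that were lower, which over all piRNAs was 9.25% and 1.76%. F0 Con helped to choose the members, so nothing is read from these counts. With the 159 piRNAs chosen instead by a mean of 20 TPM over the 7 libraries outside this comparison, edgeR called 0, 19 had an unadjusted p under 0.05 (11.9%), and the groups did not overlap for 15 higher and 12 lower. Of these 159, 88 had a positive and 71 a negative log2 difference, with a median of 0.14, beside -0.06 over the members and 0.03 over all tested.

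The member with the smallest p was mmu_piR_000619. It was at 125, 174 and 59.0 TPM in F0 Con and at 2.95, 3.67 and 5.15 in F0 NHS. Every F0 NHS library was far below every F0 Con library. The mean of 3.93 ± 1.12 TPM against 119 ± 57.7 is 0.0329 times, and the log2 difference was -5.66 (SE 1.001). This member reached the threshold through F0 Con alone, with means of 10.9 TPM in F1 Con and 11.2 in F2 Con, so its high level in F0 Con follows from the rule and the difference is given without a test.

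mmu_piR_038323 was at 252, 32.1 and 282 TPM in F0 Con and 6.38, 17.6 and 8.46 in F0 NHS. F0 Con 2 was well below the other 2 controls, but the groups did not overlap, and the log2 difference was -4.08 (SE 0.87, adjusted p = 0.383 by edgeR). mmu_piR_007729 was at 418, 257 and 198 TPM in F0 Con and 33.1, 37.5 and 37.5 in F0 NHS. The F0 NHS values were close together, at 36.0 ± 2.52 TPM (SD, n = 3), and below every F0 Con value. The log2 difference was -3.50 (SE 0.77, adjusted p = 0.383 by edgeR). For both members the fits disagreed. Over 21 alternative edgeR and DESeq2 fits the adjusted p of mmu_piR_038323 ran from 1.61e-05 to 0.903. That of mmu_piR_007729 ran from 2.34e-06 to 0.903. F0 Con helped to choose both members, so nothing is read from these values.

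The 3 members with the smallest p for a higher level in F0 NHS were mmu_piR_017205, mmu_piR_008475 and mmu_piR_026073, with log2 differences of 1.66, 2.62 and 1.70 and adjusted p of 0.607, 0.614 and 0.614 by edgeR. mmu_piR_008475 was at 13.6, 6.61 and 10.5 TPM in F0 Con and 82.4, 162 and 6.43 in F0 NHS. Replicates 1 and 2 of F0 NHS were high and replicate 3 was the lowest of all 6, the order that mmu_piR_000691 had among the F0 NHS libraries. The other 2 overlapped between the groups as well, with F0 NHS 3 the lowest exposed library in each.

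The control generations were compared in the same way. F1 Con against F0 Con gave 0 member calls and 0 calls in all by edgeR (percent called 0). At an unadjusted p under 0.05 it gave 43 members (32.8%) and 872 of all piRNAs tested (13.5%), and DESeq2 called 23 members, 7 higher and 16 lower, beside 3.35% of all, 1.19% higher and 2.16% lower. Groups did not overlap for 46 members that were higher in F1 Con and 12 that were lower, against 27.4% and 0.851% of all. F2 Con against F0 Con gave 1 member, mmu_piR_000219, among 8 edgeR calls (percent called 0.124, and 0.108 lower). At an unadjusted p under 0.05 edgeR had 44 members (33.6%) and 967 of all piRNAs tested (15.0%). DESeq2 called 18 members, 10 higher and 8 lower, beside 3.11% of all, 1.12% higher and 2% lower. Groups did not overlap for 31 higher and 10 lower members, against 15.1% and 1.72% of all. F2 Con against F1 Con gave 0 by edgeR (percent called 0). At an unadjusted p under 0.05 edgeR had 19 members (14.5%) and 588 of all piRNAs tested (9.10%). DESeq2 called 3 members there, all higher, beside 0.465% of all in either direction and 0.232% higher. Groups did not overlap there for 6 higher and 10 lower members, against 1.36% and 11.3% of all. All 3 comparisons used libraries that chose the members, so nothing is read from these counts.

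mmu_piR_000219 was at 57.5, 76.4 and 115 TPM in F0 Con, 10.9, 23.0 and 10.6 in F1 Con and 4.68, 5.70 and 8.65 in F2 Con. In F0 NHS it was at 12.7, 24.1 and 9.92 TPM and in F2 NHS at 5.55. F0 Con stood above every other library. From F0 Con to F2 Con the mean was 82.8 ± 29.1 and 6.34 ± 2.06 TPM, with a log2 difference of -4.51 (SE 0.77, adjusted p = 0.0392 by edgeR). This member reached the threshold through F0 Con alone, so the high F0 Con level follows from the rule and the call supports nothing further. The edgeR call was lost in 8 of the 13 fits that left out 1 library, with an adjusted p of 0.0184 to 0.130 over them. These libraries were F0 Con 1, 2 and 3, F0 NHS 1, F1 Con 1 and F2 Con 1, 2 and 3. With library totals it was 0.0800.

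mmu_piR_000619, described above for F0, was at 6.02, 16.8 and 9.97 TPM in F1 Con and 4.27, 16.7 and 12.6 in F2 Con, and at 7.09 in F2 NHS. All these values lay below the lowest F0 Con value of 59.0 TPM. The log2 difference from F0 Con was -4.82 (SE 0.96) in F1 Con and -4.48 (SE 0.95) in F2 Con, a description for a member that F0 Con alone brought past the threshold. The comparisons of F0 NHS, F1 Con and F2 Con with F0 Con share the 3 F0 Con libraries.

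mmu_piR_038328 was at 48.0, 109 and 43.5 TPM in F0 Con, 8.11, 7.07 and 7.47 in F0 NHS, 6.96, 29.9 and 16.0 in F1 Con, 3.97, 14.6 and 10.4 in F2 Con and 4.24 in the F2 NHS library. F0 Con was above every other library, and with means of 17.6 TPM in F1 Con and 9.68 in F2 Con this member too was chosen through F0 Con alone. mmu_piR_007729 did not share this pattern. It was at 28.7, 56.8 and 78.8 TPM in F1 Con, below F0 Con, but at 256, 364 and 877 in F2 Con, which overlapped with F0 Con, and at 143 in F2 NHS.

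The members with the smallest p for a higher level in later controls were at a few TPM in F0. They reached the threshold through F1 Con and F2 Con, so F0 Con being lower follows from the rule, and their values are given without a test. mmu_piR_013359 was at 3.25, 0.570 and 3.10 TPM in F0 Con, 32.9, 27.1 and 44.5 in F1 Con, and 20.2, 8.58 and 67.7 in F2 Con. Both later groups lay above F0 Con without overlap, with log2 differences of 3.02 (SE 0.61) and 3.15 (SE 0.62). mmu_piR_037613 was at 5.57, 1.09 and 8.22 TPM in F0 Con, 119, 67.2 and 45.2 in F1 Con, and 62.7, 17.1 and 208 in F2 Con. It too did not overlap with F0 Con in either generation.

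mmu_piR_021185 was at 8.70, 5.48 and 12.5 TPM in F0 Con and 54.9, 41.5 and 162 in F1 Con, and at 28.6, 23.0 and 48.5 in F2 Con. F0 Con was below both. mmu_piR_026822 was at 1.45, 0.610 and 4.27 TPM in F0 Con and at 29.1, 2.82 and 76.6 in F2 Con, where replicate 2 fell within the F0 Con range. The summed germ cell, smooth muscle and epithelial miRNAs, given above, also lay apart between F0 Con and both later controls. The red blood cell markers overlapped in both cases. Their part in these differences was not tested.

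**Figure D4:**
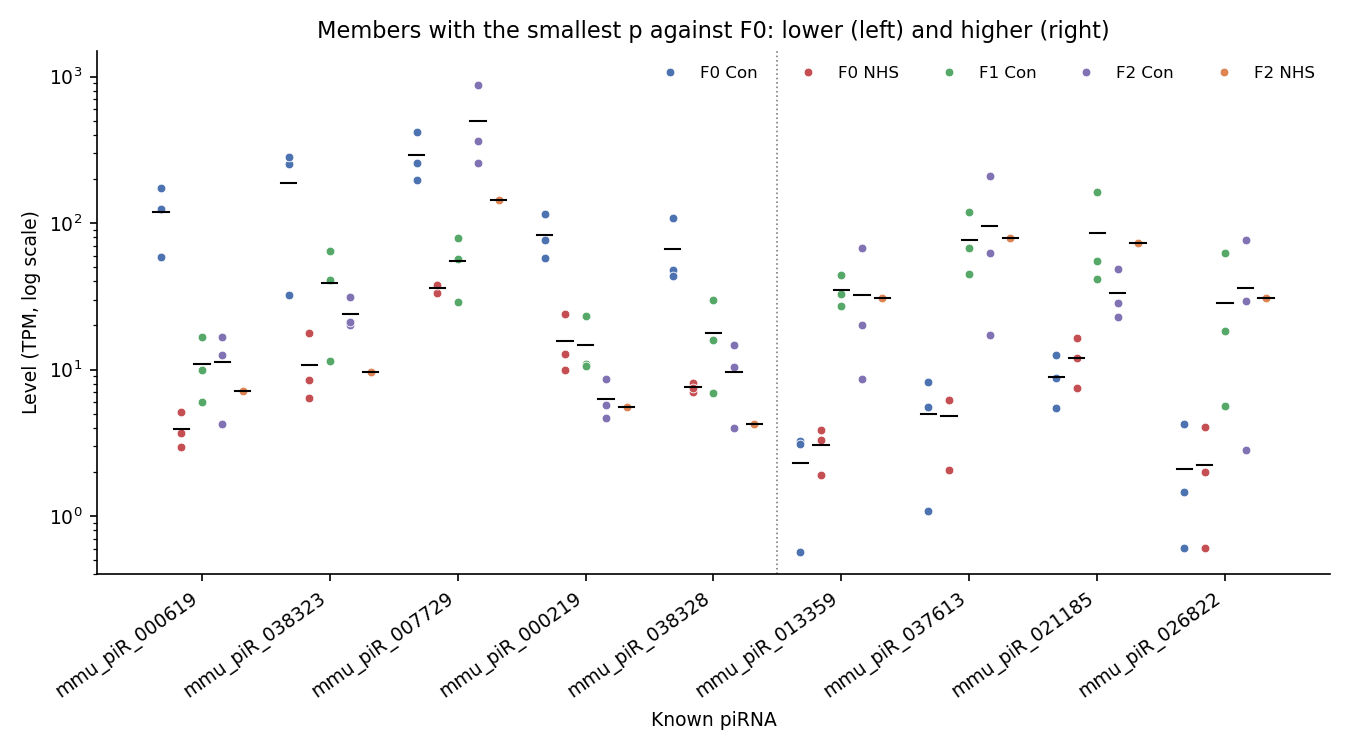
Level in TPM (log y axis) of the 9 members with the smallest p against F0 groups (x axis), lower ones left and higher ones right of the dotted line, each point a library, the black bar the group mean. F0 Con alone is high for mmu_piR_000619 and mmu_piR_000219, and both F0 groups are low for mmu_piR_013359 and mmu_piR_037613.

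F2 NHS against F0 NHS is the comparison that uses none of the libraries that chose the members, and it rests on 1 F2 library assumed to vary like the other groups. Most of the choosing libraries were F1 Con and F2 Con, so the rule can still favour piRNAs that are higher after F0. The counts, directions and medians of the members below are therefore descriptions. edgeR called 0 of 131 members and 0 of 6463 known piRNAs (percent called 0). At an unadjusted p under 0.05 it had 20 members (15.3%), 15 of them higher, against 722 of all (11.2%), 299 of them higher. DESeq2 called 3 members, all higher, beside 1.24% of the piRNAs it gave an adjusted p, 0.278% higher. The median log2 difference was 0.17 over the members and -0.15 over all tested.

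The 3 members that DESeq2 called were mmu_piR_013359, mmu_piR_037613 and mmu_piR_021185. mmu_piR_013359 was at 3.89, 1.90 and 3.31 TPM in F0 NHS and 31.0 in F2 NHS, a log2 difference of 3.17 (SE 0.73). mmu_piR_037613 was at 6.20, 2.07 and 6.24 TPM in F0 NHS and 79.3 in F2 NHS, a log2 difference of 3.84 (SE 0.92). mmu_piR_021185 was at 16.4, 7.54 and 11.9 TPM in F0 NHS and 73.2 in F2 NHS, a log2 difference of 2.45 (SE 0.67).

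In each case the F2 library lay above all 3 F0 NHS libraries, at an adjusted p of 0.206, 0.206 and 0.253 by edgeR and 0.0197, 0.0197 and 0.0301 by DESeq2. In the control line the same 3 piRNAs had log2 differences from F0 Con to F2 Con of 3.15, 3.67 and 1.26. The rule favoured a higher level in the later controls for these 3, so the control values are no separate support. The same lean of the rule may bear on the exposed line, so its differences are descriptions too. The 3 with the smallest p for a lower level in F2 NHS were mmu_piR_020578, mmu_piR_003274 and mmu_piR_003244. mmu_piR_020578 was at 4.76, 12.9 and 12.8 TPM in F0 NHS and 1.31 in F2 NHS, with a log2 difference of -3.22 (SE 1.18, adjusted p = 0.339 by edgeR). For mmu_piR_003274 and mmu_piR_003244 the log2 differences were -2.24 and -3.72, at an adjusted p of 0.370 and 0.375 by edgeR.

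F2 NHS against F2 Con rested on the same single library, and F2 Con helped to choose the members. edgeR called 0 of 131 members and 0 of all (percent called 0), with 3 members (2.29%) and 497 of all (7.69%) at an unadjusted p under 0.05. DESeq2 called 1 member, lower, beside 0.441% of all, 0.407% lower. That member was mmu_piR_020578, at 26.4, 25.1 and 31.6 TPM in F2 Con but at 1.31 in the F2 NHS library, a log2 difference of -4.31 (SE 1.26, adjusted p = 0.460 by edgeR and 0.0192 by DESeq2). The F2 NHS library was below all 3 controls. With F2 NHS replicates 2 and 3 added, 2702 piRNAs that come early in the lists could be used before the filter on low counts, 5 of them members, and edgeR called 0 of the 5, with 0 at an unadjusted p under 0.05. For the difference between the NHS effects of F2 and F0, edgeR called 0 members and 0 of all (percent called 0, with 12 members and 446 of all at an unadjusted p under 0.05). DESeq2 called 0 members and 4 of all (0.0620%).

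Members differed greatly in how steady they were. Over the 9 controls the coefficient of variation of TPM had a median of 76.7% and ran from 34.2% for mmu_piR_006418 to 195% for mmu_piR_007957. A level of 20 TPM or more was found in all 9 controls for 23 members, in 3 or fewer for 18 and in 1 control alone for 1. The median biological coefficient of variation that edgeR fitted was 0.581 over the members and 0.537 over all tested piRNAs.

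The steadiest were mmu_piR_006418, mmu_piR_030955 and mmu_piR_011982. mmu_piR_006418 was at 89.8, 41.5 and 113 TPM in F0 Con, 57.1, 103 and 124 in F1 Con and 144, 137 and 95.9 in F2 Con. In the exposed line it was at 154, 78.9 and 102.7 TPM in F0 NHS and 88.7 in F2 NHS. The groups of 3 libraries overlapped throughout, and the F2 NHS library lay below every F2 Con library. The most variable were mmu_piR_007957, mmu_piR_000644 and mmu_piR_003758, each with its highest level in a single library. mmu_piR_007957 reached 157 TPM in F1 Con 3 and was at 18.4 TPM or less in every other library. mmu_piR_000644 and mmu_piR_003758 reached 326 and 331 TPM in F2 Con 2, and each had its next highest level in F0 NHS 2, at 130 and 117 TPM.

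**Figure D5:**
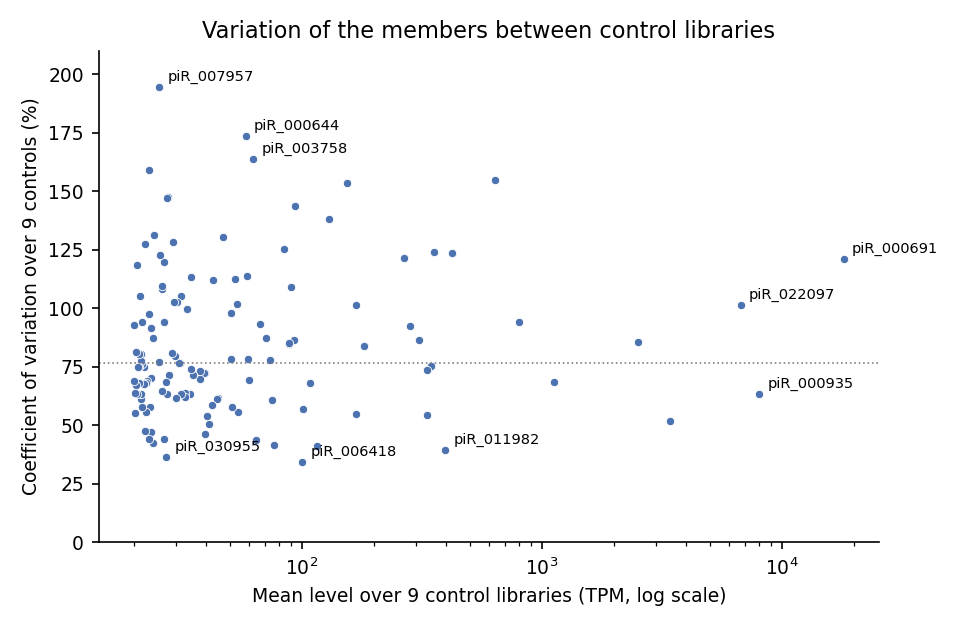
Coefficient of variation of TPM over the 9 control libraries (%, y axis) against mean level over the same libraries (TPM, log x axis), each point a member, the dotted line the median of 76.7%. Steady and variable members occur at most levels, and mmu_piR_000691 lies at 121%.

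The levels of the members moved together only loosely across libraries. Over the 13 libraries the median Pearson correlation of log2(TPM + 1) between pairs of members was 0.193, against 0.471 between pairs of the 571 non-members with a mean of 5 TPM or more. Libraries share depth and composition, and these values are descriptions. Among 701 candidates with a mean of 5 TPM or more, the profile nearest to mmu_piR_000691 was that of the member mmu_piR_008475 (r = 0.908, n = 13 libraries). The nearest to mmu_piR_000585 was the member mmu_piR_039147 (r = 0.830), and those nearest to mmu_piR_000935, mmu_piR_022097 and mmu_piR_002643 were mmu_piR_032983 (r = 0.837), mmu_piR_015501 (r = 0.795) and mmu_piR_027374 (r = 0.801), which are not members.

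Identifiers with low numbers were common among the members. A number below 1000 belonged to 22 of 131 members (16.8%) and to 2.48% of all known piRNAs listed, and one below 10000 to 61 members (46.6%) and 25.7% of all. Another member within 10 numbers was found for 28 members. No such share was worked out over all known piRNAs, so nothing is read from this count. What the order of these numbers stands for is not given in the sources used here.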

How the data were processed

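Known piRNAs were read from 1 deposited table. Per the file headers it gives a count and a TPM value per small RNA and library. The deposited counts are whole reads, and the deposited TPM equals count over library total times 1000000 in 100% of entries of the 13 complete lists (to 2 decimals). The table ends after 96730 lines, so 5 lists stop early. The submitters' processing notes name mm10. The sources used here do not name the aligner, counting tool or filters.

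The members, gene lists and tests were chosen with earlier results of these data known. Members are known piRNAs with a mean of 20 TPM or more over 9 controls. Counts were tested with edgeR 4.0.16 in R 4.3.3 (group means over 13 libraries, 8 residual degrees of freedom, TMM scaling, 1 CPM in 3 libraries, two-sided). DESeq2 1.42.0, other scalings and filters, other member thresholds, a replicate block and leaving out libraries were the alternatives, and the library set term and the values without mmu_piR_000691 were added after the data were seen. Shares of reads were compared with exact permutation tests (SciPy 1.17.1). Single piRNAs were named by rule: the 10 highest members, the 3 on each side of the threshold, the 3 smallest p in each direction of 4 comparisons, the 3 lowest and highest coefficients of variation, and the nearest profiles of the first 5. On data simulated for F0 NHS against F0 Con over 6463 piRNAs with the spread of these libraries, edgeR recovered 11% of piRNAs changed by 2 on the log2 scale and 85% of those changed by 4. Libraries held 18072900 to 29430555 reads, and copies made by PCR could not be told from separate molecules, so depth speaks of counting error only.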

Additional observations from a re-analysis of the deposited data

Results flagged for a closer look

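In libraries whose lists stop early, which are outside the main comparisons, 7 members were listed above the highest of the 9 controls. In F1 NHS replicate 2, mmu_piR_012508 was at 192.88 TPM (highest control 134.32), mmu_piR_034796 at 76.8 (73.69), mmu_piR_033307 at 62.68 (53.99) and mmu_piR_039402 at 42.63 (38.0). In F2 NHS replicate 2, mmu_piR_034793 was at 482.06 TPM (173.93), mmu_piR_035757 at 208.1 (162.98) and mmu_piR_009279 at 49.73 (47.22). Each rests on 1 library, with no test, and F1 NHS replicate 2 belongs to the libraries high in novel_mir1. The members listed in these 2 libraries numbered 53 and 19. Of these, 4 and 3 lay above all controls, and 3 and 1 below them. How many of the 11963 and 5284 known piRNAs listed there lay above all controls was not counted. Nothing is therefore read from the number of 7.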

How the results depend on the processing

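Main counts of called members were 0, except 1 for F2 Con against F0 Con. Under DESeq2, known piRNAs and members called were 26 and 9 for F0 NHS against F0 Con, 13 and 1 for F2 NHS against F2 Con, 149 and 23 for F1 Con against F0 Con, 201 and 18 for F2 Con against F0 Con, 30 and 3 for F2 Con against F1 Con, 49 and 3 for F2 NHS against F0 NHS, and 4 known piRNAs for the difference of the NHS effects. Without the filter 35824 known piRNAs were tested, a larger set than in the main fit. The counts were then, in this order, 12 and 3, 3 known piRNAs, 111 and 14, 246 and 16, 116 and 2, 20 and 3, and 9 and 1. Library totals gave 1 and 1 for F0 NHS against F0 Con, 1 known piRNA for F1 Con against F0 Con, and 0 and 0 for F2 Con against F0 Con. The 10 CPM filter left 513 known piRNAs to test, among them all 131 members. It gave 4 and 4 for F1 Con and 5 members for F2 Con, each against F0 Con. The number called over all 513 for F2 Con is not listed here, so the 5 members are not set against it. Counts under different filters rest on different numbers tested and are not shares. Using only the groups compared gave 5 known piRNAs for F2 Con against F0 Con and 4 for F2 NHS against F0 NHS. The library set term gave 19 and 4 for F2 Con against F0 Con, and members at 40 TPM or chosen outside the comparison gave 0 there. The cause was not tested.

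Same-numbered libraries correlated weakly: of 18 such pairs 3 were above 0.1, with a range from -0.219 to 0.187. Different-numbered pairs ran from -0.234 to 0.295. With so few libraries these values cannot show whether libraries of the same number were related. With the replicate number as a block, 2 known piRNAs in place of 8 were called for F2 Con against F0 Con, with 1 member as before, no other count of calls moved from 0, and mmu_piR_000585 in F0 NHS against F0 Con turned to -0.22.

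Leaving out 1 library, known piRNA calls were 0 to 1 for F1 Con against F0 Con, 0 to 12 for F2 Con against F0 Con (members 0 to 2), 0 to 3 for F2 Con against F1 Con and 0 to 1 for F2 NHS against F0 NHS. Other member counts stayed at 0, and mmu_piR_000585 in F0 NHS went from -0.44 to 0.68. The class share of F2 Con minus F1 Con, 0.0995 percentage points, ran from -1.30 to 1.07, turned to -2.42 over named classes and to -2.11 without mmu_piR_000691. The share of the first 10, F2 Con minus F0 Con and minus F1 Con, turned to -1.90 and -4.08 without it. The number of piRNAs holding 50% ran from -16.2 to -3.67 (F0 NHS minus F0 Con), -8.67 to 5.00 (F1 minus F0 Con), -11.2 to 1.33 (F2 minus F0 Con) and -8.50 to 2.33 (F2 minus F1 Con), and the member share of F0 NHS was 64.0% without mmu_piR_000691.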

Other observations

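Of the 5 libraries with partial lists, F1 NHS replicate 2 listed 53 members, from 3.49 to 1309.69 TPM with a median of 35.14. Of these, 46 lay within the range of the 9 controls and 3 below it. F2 NHS replicate 2 listed 19 members, from 7.56 to 482.06 TPM, with 15 within that range and 1 below it. F2 NHS replicate 3 listed 5 members, from 15.69 to 83.89 TPM, all within it. F1 NHS replicates 1 and 3 listed 0 known piRNAs before their lists stop. mmu_piR_021185 was listed in 3 of the 5 partial lists, at 95.3 TPM in F1 NHS 2, 64.1 in F2 NHS 2 and 83.9 in F2 NHS 3. Its F0 NHS range was 7.54 to 16.4 TPM. Other members in the same 3 lists did not share this. mmu_piR_000414 was at 19.6, 7.56 and 16.8 TPM, against 16.0 to 26.4 in F0 NHS. mmu_piR_002490 was at 182, 302 and 26.8 TPM, against 101 to 271. No test was run on partial lists, so nothing is read from these values.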
